A study of Mus musculus and Homo sapiens with 32 samples.

Results

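The data are 6 RNA-seq libraries from whole mouse kidney, the Pcmt1 fl/fl animals of an obstruction experiment. The 3 sham libraries come from kidneys of fl/fl mice that had a sham operation and received DMSO, and the 3 UUO libraries from kidneys of fl/fl mice that had unilateral ureteral obstruction (UUO) and received DMSO. These groups were chosen by their genotype and treatment labels, and they are 6 of the 18 libraries of that experiment and 6 of the 32 samples of the study. Both groups carry the floxed allele of Pcmt1, which encodes a methyltransferase that starts the repair of damaged aspartyl residues in proteins, and no Cre is named for either. The other 4 groups of the experiment were fl/fl kidneys with UUO and LY2109761, which blocks TGF-β receptor kinases, and kidneys labelled Pcmt1 tKO with sham and DMSO, with UUO and DMSO, and with UUO and LY2109761. The labels do not spell out tKO. Strain, age, sex and the time between surgery and collection are not given in the sources used here. Nothing says whether the 3 libraries of a group came from separate mice, so the spread behind each p-value is that of these libraries and may be technical.

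In UUO the ureter of a kidney is tied, urine backs up, and the tubules are stretched and injured while leukocytes enter and scar matrix builds up between the tubules. A nephron is a chain of specialised segments: the proximal tubule reclaims most of the filtered sugar, phosphate and amino acids and burns fatty acids to do so, the thick ascending limb and distal tubule reclaim salt and calcium, and the collecting duct sets the water, potassium and acid content of the urine. Each segment has its own transporters, which makes a whole-kidney profile readable segment by segment. In whole tissue, fewer cells of a type and less RNA per cell cannot be told apart.

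The libraries held 14803250 to 19565376 counts. Mitochondrially encoded genes took 30.8% to 35.5% of the counts in sham and 7.43% to 7.67% in UUO, and the TMM scaling factors followed, at 0.72 to 0.795 in sham and 1.204 to 1.292 in UUO. Correlations of log2 CPM were at least 0.9642 within a group and at most 0.9094 between groups. Levels below are CPM, read counts relative to the TMM-adjusted library size in the usual CPM unit, given for replicates 1, 2 and 3 of sham and then of UUO or as mean ± SD over 3 libraries, and changes are log2 values, UUO minus sham, with edgeR's Benjamini-Hochberg adjusted p over all genes tested. "Rose" and "fell" mean an adjusted p under 0.05. SE is calculated back from the test, as the size of the log2 change over the square root of edgeR's F statistic. Of 19256 genes tested, 7625 (39.6%) passed, 4031 (20.9%) higher and 3594 (18.7%) lower in UUO, and 2693 (14%) were at least 2-fold higher and 2009 (10.4%) at least 2-fold lower. Counts of list members below are to be read against these shares. A gene could pass the filter on low counts through a single group. Members near 0 in sham were thus tested only through other groups, which can favour a rise. The sham and UUO libraries did not overlap in 10546 of the genes tested (54.8%). With column totals in place of TMM, 90.4% of the called genes were higher in place of 52.9%, and the median of all genes went from 0.02 to 0.76 on the log2 scale, so changes are relative to that scaling. The kidney markers Umod, Lrp2, Slc34a1, Slc12a3, Aqp2 and Ren1 were all present, with sham means from 34.99 to 2640 CPM. Pcmt1 stood at 48.95, 43.4 and 42.8 CPM in sham and 41.4, 35.3 and 40.6 CPM in UUO, lower in every UUO library by a small margin, and did not pass (log2 −0.20, edgeR adjusted p = 0.52), with a value of 0.54 with column totals.

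The steepest fitted increase among named genes detected in every sham library belonged to Havcr1 (ENSMUSG00000040405, chromosome 11, 46735080 to 46779578 on GRCm38), which encodes kidney injury molecule 1, a receptor that injured proximal tubule cells put on their surface. Havcr1 stood at 3.197, 1.701 and 2.06 CPM in sham and 1691, 1418 and 1225 CPM in UUO (log2 change 9.28, SE 0.34, edgeR adjusted p = 4.2e-10). The groups were far apart. Among the other large increases was Krt20, a keratin, at 0.07104, 0.148 and 0.4501 CPM in sham and 101, 88.6 and 47.5 CPM in UUO (log2 8.38). Lif, a cytokine of the interleukin-6 family, stood at 0.426, 0.518 and 0.257 CPM in sham and 117, 39.7 and 23.5 CPM in UUO (log2 7.22, SE 1.03), with UUO replicate 1 the highest. Sox9, a transcription factor of repairing tubule cells, rose from 0.262 ± 0.391 to 26.8 ± 7.08 CPM, and Ltbp2, a microfibril protein, from 0.3696 ± 0.249 to 38.3 ± 14.7 CPM. Il36a, a cytokine of the interleukin-1 family, rose from 0.0967 ± 0.0838 to 26.3 ± 6.63 CPM. Lgi2, a secreted leucine-rich protein, rose from 0.278 to 38.1 CPM and Fcrl2, a member of the Fc receptor-like family, from 0.293 to 32.6 CPM.

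In 37 genes, 29 of them named, every sham library held 0 counts and every UUO library at least 10, and in 6 genes, 4 of them named, the reverse was seen. Sprr2f, a small proline-rich protein of epithelial barriers, had 539, 440 and 442 counts in the UUO libraries and was at least 327-fold higher, against a floor of 3 counts over the sham group. The Sprr2 genes are close copies, so how reads were shared among them is uncertain. Arhgap36, a modulator of hedgehog signalling, had 408, 302 and 217 counts in UUO (at least 210-fold higher). Areg, the EGF receptor ligand amphiregulin, had 60, 42 and 60 counts in UUO (at least 37.5-fold higher), and Krt12, a keratin of the cornea, had 34, 31 and 22. Kcnh8, a potassium channel, had 77, 54 and 49 counts, Fpr2, a formyl peptide receptor of neutrophils and monocytes, 19, 41 and 21, and Defb36, a defensin, 67, 95 and 105. In the other direction Pvalb, parvalbumin, a calcium-binding protein of the early distal convoluted tubule, had 104, 120 and 158 counts in sham and 0 in all 3 UUO libraries (at least 184-fold lower). Neurog2, a transcription factor known from neurons, had 43, 28 and 50 counts in sham and 0 in UUO.

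**Figure D1:**
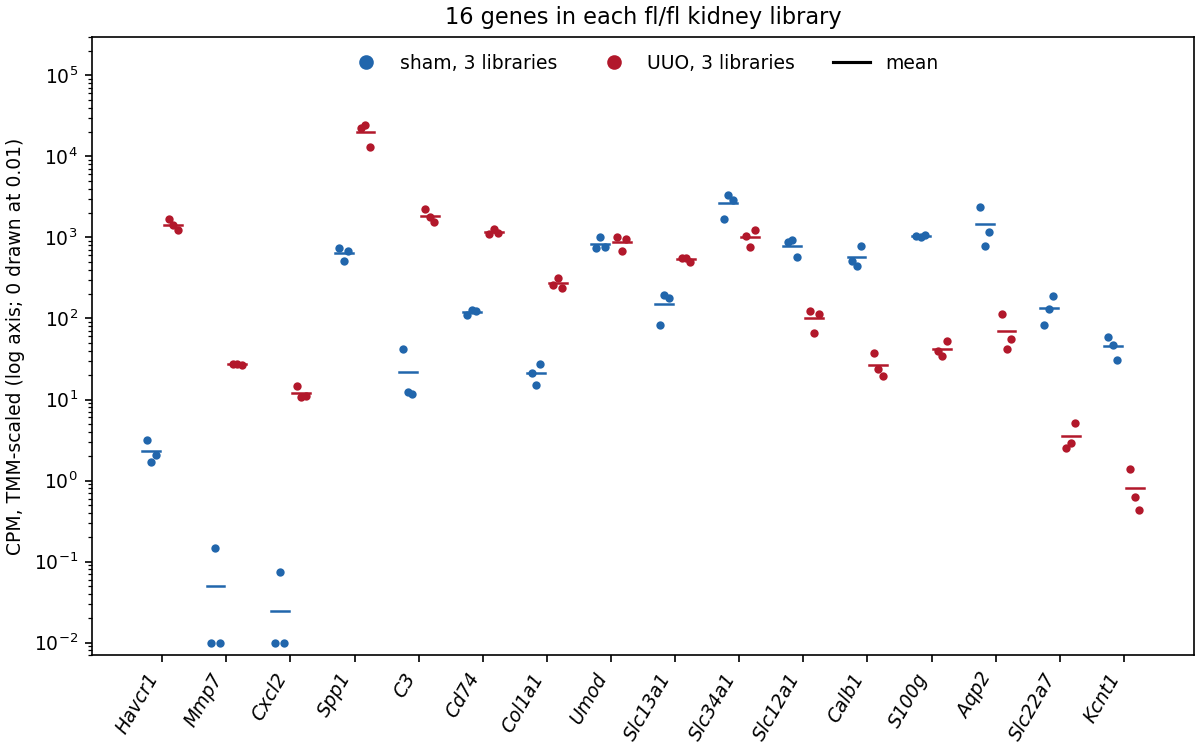
Level of 16 genes in each of the 6 fl/fl libraries, in CPM of the TMM-scaled library size on a log axis (sham blue, UUO red, horizontal bars the group means, 0 drawn at 0.01). Umod is the gene in which the groups overlap, and in the other 15 every UUO library lies on one side of every sham library. Of all genes tested, 54.8% were separated in this way.

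Kcnt1, a sodium-activated potassium channel, fell from 45.97 ± 14.6 to 0.812 ± 0.499 CPM (log2 change −5.78, SE 0.66, edgeR adjusted p = 6.8e-06). Slc22a7 (ENSMUSG00000067144, chromosome 17, 46432183 to 46438457), an organic anion transporter of the proximal tubule, stood at 83.8, 131 and 190.4 CPM in sham and 2.54, 2.91 and 5.199 CPM in UUO (log2 −5.26). Corin, the protease that activates atrial natriuretic peptide, fell from 16.4 ± 3.91 to 0.532 ± 0.156 CPM (log2 −4.91). C8a, the alpha chain of complement component C8, fell from 33.6 ± 1.66 to 1.36 ± 0.6195 CPM (log2 −4.62). Nccrp1, an F-box-associated protein, fell from 112 to 2.85 CPM, Tnn, tenascin N, from 16.5 to 0.666 CPM and Serpina1d, an α1-antitrypsin paralog, from 424 to 21.04 CPM. Serpina1d and Klk1b5 (log2 −4.42) belong to families of near-identical genes, so their counts may include reads of a copy.

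Most apical transporter genes of the proximal tubule fell, but not all. Of 33 apical transporter genes 23 fell and 2 rose (median log2 −1.24, and −0.50 with column totals). With column totals 12 of the 33 were lower and 3 higher. Slc34a1, the main sodium-phosphate cotransporter of this segment, stood at 1676, 3319 and 2925 CPM in sham and 1038, 756 and 1248 CPM in UUO (log2 change −1.38, SE 0.26, edgeR adjusted p = 0.00054, and 0.082 with column totals). Slc6a18, a transporter of neutral amino acids, fell from 1014 ± 301 to 258 ± 45.3 CPM, and Slc5a8, which takes up lactate and other monocarboxylates, from 183 ± 11.6 to 42.8 ± 12.2 CPM. Slc22a4, a carrier of ergothioneine and carnitine, fell from 53.02 ± 5.36 to 24.9 ± 2.58 CPM, a log2 change of −1.09. In contrast Slc13a1 (ENSMUSG00000029700, chromosome 6, 24088283 to 24168092), the sodium-sulfate cotransporter of the same membrane, rose, at 83.05, 194 and 178 CPM in sham and 550.2, 559 and 497 CPM in UUO (log2 change 1.82, SE 0.30, edgeR adjusted p = 2e-04). All UUO libraries lay above all sham libraries, and 54.8% of all genes tested were separated in one direction or the other. The other apical gene that rose was Abcc4, an exporter of organic anions and cyclic nucleotides, from 27.7 ± 7.18 to 67.6 ± 9.13 CPM. The glucose transporter gene Slc5a2 (SGLT2) stood at 162, 399.6 and 629 CPM in sham and 180.4, 111 and 306 CPM in UUO (log2 −0.99, edgeR adjusted p = 0.056) and did not pass.

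On the basolateral, blood-facing side 9 of 19 genes fell and 1 rose (median log2 −1.33). With column totals 6 of them were lower and 4 higher (median −0.59). The organic anion exchangers Slc22a6 (OAT1) and Slc22a8 (OAT3), which load drugs and toxins into the tubule cell, fell from 539.6 ± 190.1 to 172 ± 56.8 CPM and from 521 ± 167 to 72.5 ± 29.9 CPM. Slco4c1, an organic anion carrier that also handles digoxin, fell from 51.5 ± 18.5 to 4.91 ± 1.81 CPM (log2 −3.39). Aqp1, the constitutive water channel, fell from 1496 ± 525 to 218 ± 57.8 CPM. Slc4a4, the sodium-bicarbonate cotransporter through which this segment returns bicarbonate to blood, rose from 185 ± 75.6 to 341 ± 55.2 CPM (log2 0.88, edgeR adjusted p = 0.042), but it passed in only 2 of the 6 fits that left out 1 fl/fl library. Across the whole SLC22 family of organic ion carriers 17 of 22 tested members fell and 1, Slc22a15 (log2 1.75), rose. The list of basolateral genes held 2 members with a large but uneven difference: Kcnj15 stood at 392, 464 and 504 CPM in sham and 157, 5.33 and 69.9 CPM in UUO and Kcnj16 at 14.4, 379 and 14.5 CPM in sham and 18.7, 17.4 and 15.8 CPM in UUO, and neither passed.

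Lrp2 (megalin) and Cubn (cubilin), the paired receptors that retrieve filtered protein, fell from 1209 ± 216 to 418 ± 102 CPM and from 301 ± 35.3 to 132 ± 21.04 CPM, although Cubn did not pass with column totals (edgeR adjusted p = 0.16). Of 10 uptake genes 5 fell and 1, Tfr2 (transferrin receptor 2, 0.739 to 2.94 CPM), rose, with a median of −0.51 that was 0.23 with column totals. Of 15 brush border enzymes 10 fell and 1 rose (median log2 −1.15). With column totals 5 of them were lower and 4 higher (median −0.41). Mep1b, the beta subunit of the protease meprin, stood at 374, 327 and 294 CPM in sham and 16.5, 13.8 and 17.6 CPM in UUO (log2 −4.38), and Napsa, an aspartic protease of proximal tubule, at 6047, 3951 and 3107 CPM in sham and 970.2, 689 and 945 CPM in UUO (log2 −2.33). Ggt1, which breaks down glutathione at the brush border, fell from 1157 ± 130.2 to 237 ± 47.2 CPM. The enzyme that rose was Alpl, tissue non-specific alkaline phosphatase, at 94.99, 173 and 205 CPM in sham and 500.2, 239.7 and 435 CPM in UUO (log2 change 1.31, SE 0.34, edgeR adjusted p = 0.0055).

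HNF4A is a transcription factor that holds proximal tubule identity, and its own gene Hnf4a fell from 499 ± 50.9 to 307 ± 102 CPM (log2 −0.70, edgeR adjusted p = 0.018), although it stood at 0.045 with column totals. The letters CAAAGTCCA, the core of an HNF4 motif, were searched on both strands in the 250 bases before each RefSeq gene start of GRCm38.p6. They were found in 0.5% of 27025 genes with a promoter in the table, in 1 of 26 apical transporter genes, in 1 of 11 brush border genes, in 0 of 15 basolateral transporter genes and in 0 of 19 members of the SLC22 family. The share was 0.5% of the genes that fell and 0.6% of those that rose, near that of all promoters. The 2 promoters are shown as the matches within these lists, Slc3a1 (a subunit of the cystine transporter, 560.5 ± 93.3 to 257 ± 33.96 CPM) and Treh (the trehalose-splitting enzyme, 92.1 ± 0.348 to 41.5 ± 7.62 CPM), both lower in UUO but not past the threshold with column totals (edgeR adjusted p = 0.25 and 0.25). Capitals mark the match, and both windows run on the + strand from 250 to 29 bases before the start, at chr17:85028097-85028318 and chr9:44672983-44673204.
Slc3a1 promoter: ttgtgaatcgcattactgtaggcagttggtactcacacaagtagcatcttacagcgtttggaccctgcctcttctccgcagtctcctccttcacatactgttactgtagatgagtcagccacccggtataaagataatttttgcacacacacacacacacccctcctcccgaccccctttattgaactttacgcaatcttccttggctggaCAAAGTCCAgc
Treh promoter: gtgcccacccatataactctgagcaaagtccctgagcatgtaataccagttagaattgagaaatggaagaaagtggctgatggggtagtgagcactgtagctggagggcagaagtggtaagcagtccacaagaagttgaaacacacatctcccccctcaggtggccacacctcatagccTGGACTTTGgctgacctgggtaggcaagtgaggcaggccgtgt
The match lies 39 bases before the start in Slc3a1 and 71 bases before it in Treh, where it is on the opposite strand. A shared stretch of letters is a description of these windows and shows no binding.

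All 38 complex I subunits fell (median log2 −1.30), as did 43 of 45 nuclear subunits of complexes II to V (median −1.32). With column totals 14 of the 38 and 14 of the 45 fell, with medians of −0.56 and −0.59. Ndufc1, a small subunit of complex I, had 100.5, 121 and 137 CPM in sham and 24.1, 20.2 and 29.6 CPM in UUO (log2 −2.28). Cox5b, a cytochrome c oxidase subunit, fell from 293 ± 14.4 to 112 ± 12.9 CPM. Cox6b2, a cytochrome c oxidase subunit best known from testis, was the member that rose, from 5.196 ± 0.673 to 10.4 ± 2.25 CPM. Of 13 proteins encoded in mitochondrial DNA 12 fell (median −3.09, and −2.34 with column totals), more than the nuclear subunits of the same complexes by median. The exception was mt-Nd6, the one protein gene on the light strand, at 291, 208 and 164 CPM in sham and 20.03, 18.7 and 245 CPM in UUO, where UUO replicate 3 stood apart from the other UUO libraries. Per length, in the authors' FPKM, mt-Co1 was the most abundant gene in both groups, at 66370 ± 5868 FPKM in sham and 17470 ± 1339 FPKM in UUO. Spp1, osteopontin, went from 89.8 FPKM in sham to rank 7 in UUO at 4658 ± 1438 FPKM.

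In fatty acid oxidation 28 of 30 genes fell (median −1.44, and −0.70 with column totals), and no member rose. With column totals 13 of the 30 passed. Acadm, which starts the oxidation of medium-length chains, fell from 885 ± 11.9 to 220 ± 34.5 CPM (log2 −2.01), and Cpt2, which hands fatty acids to the matrix enzymes, from 169 ± 8.15 to 64.03 ± 12.3 CPM. Peroxisomes, which shorten very long chains, had 20 of 22 genes fall, or 6 with column totals, including Acox2, an oxidase of bile acid precursors (111 to 29.7 CPM). In the TCA cycle 18 of 21 genes fell (median −0.86, −0.13 with column totals, where only 2 passed), with Sdhb, a subunit of succinate dehydrogenase, at log2 −1.78 and Mdh2, mitochondrial malate dehydrogenase, at −1.11 (−0.38 with column totals, not past the threshold). Of 33 genes of amino acid catabolism 27 fell (15 with column totals), among them Fah, the last enzyme of tyrosine breakdown (577 to 174 CPM), and Bhmt2, which remethylates homocysteine (181 to 24 CPM). Arg2, the mitochondrial arginase, was the member that rose (log2 1.11). In renal gluconeogenesis 7 of 10 genes fell, including Pck1, its rate-setting enzyme, from 1773 ± 172 to 593 ± 257 CPM, and G6pc, which releases free glucose, from 285 ± 164 to 47.9 ± 24.1 CPM. With column totals 3 of the 10 were lower and 3 higher, with a median of −0.18.

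Glycolysis had members in both directions, and its median changed sign with the scaling (−0.53, and 0.20 with column totals). Of 20 genes 4 rose and 6 fell. Of all genes tested 20.9% rose and 18.7% fell. The share of the list that rose was thus near that of all genes, and the share that fell was above it. Hk2, an inducible hexokinase, stood at 2.49, 0.888 and 0.9002 CPM in sham and 34.8, 22.9 and 17.9 CPM in UUO (log2 change 4.14, SE 0.44, edgeR adjusted p = 3.7e-06), and Hk3, the hexokinase of myeloid cells, rose from 0.37 ± 0.2002 to 4.03 ± 1.07 CPM. Eno2 (log2 1.67) and Pklr, the pyruvate kinase of liver and proximal tubule (log2 2.02), also rose. The members that fell, Pfkm, Pgam1, Aldoa, Gapdh, Pgk1 and Tpi1, changed by −1.25 to −0.62, and none of them passed with column totals, where Aldoa, Gapdh and Pgk1 were above 0.

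**Figure D2:**
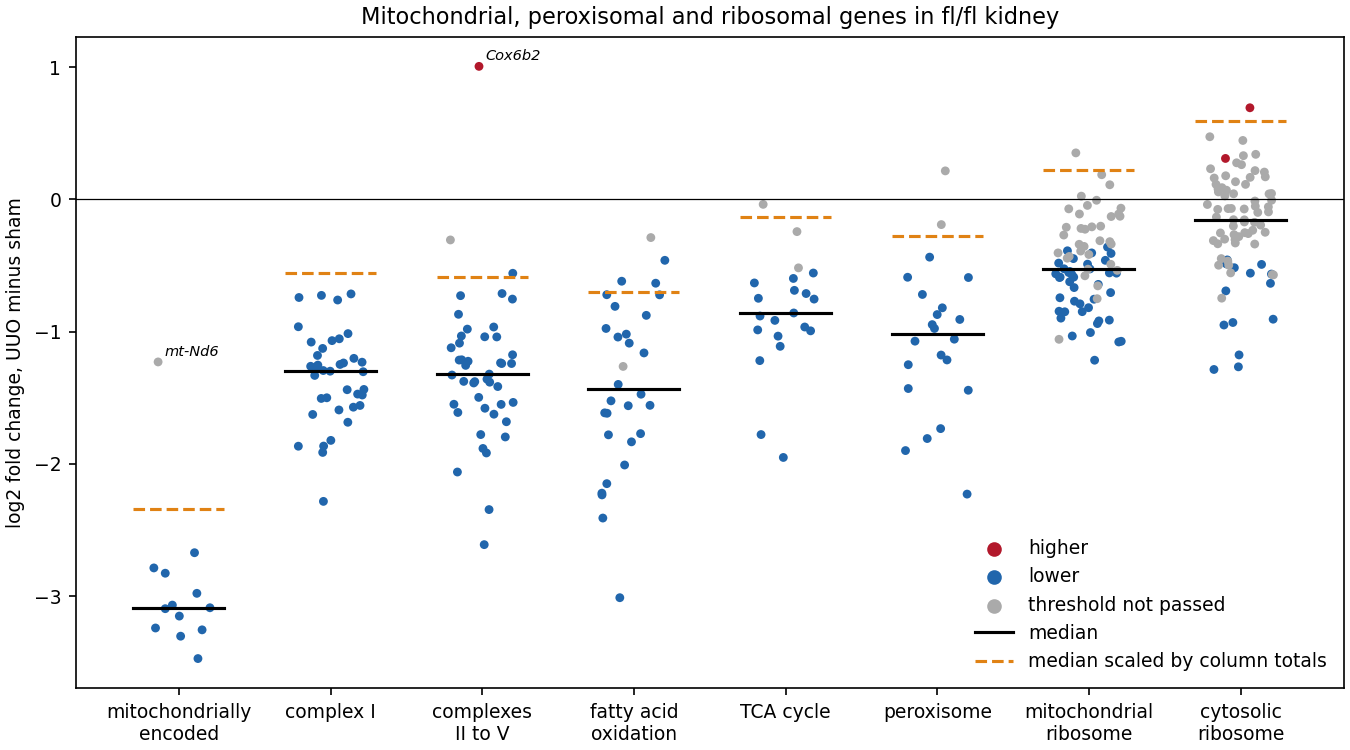
Log2 change, UUO minus sham, of each tested member (points, coloured by whether it rose, fell or did not pass), with the list median (black) and the median with column totals (orange, dashed). The medians of the mitochondrially encoded genes and of the complex, fatty acid, TCA and peroxisome lists stay below 0 in both scalings, while those of both ribosome lists cross 0.

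Of 75 mitochondrial ribosomal proteins 40 fell (median −0.52, but 0.22 with column totals, where 9 were higher and 0 lower). Of 79 cytosolic ribosomal proteins 14 fell and 2 rose (median −0.16, but 0.59 with column totals). Shares of the cytosolic list are near or below those of all genes, 17.7% lower and 2.5% higher. Ribosomal protein genes have many processed pseudogenes, so reads may be split between copies.

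In the thick ascending limb 12 of 15 genes fell, while with column totals 8 were lower and 3 higher. Slc12a1 (NKCC2), the furosemide-sensitive salt transporter of this segment, stood at 874, 918 and 576 CPM in sham and 122, 65.4 and 114 CPM in UUO (log2 change −2.97, SE 0.33, edgeR adjusted p = 4.7e-06). Egf, the growth factor that this segment and the distal tubule secrete, fell from 253 ± 95.4 to 12.96 ± 2.697 CPM (log2 −4.29). Tmem207, a membrane protein of unclear function, fell from 19.2 to 0.986 CPM, and Bsnd (barttin), a chloride channel subunit, from 97.2 to 16.5 CPM. Umod, uromodulin, the most abundant urinary protein and the classic marker of the segment, did not follow, at 745, 1007 and 754 CPM in sham and 1002, 683 and 970 CPM in UUO (log2 0.08, SE 0.21, edgeR adjusted p = 0.79). The groups overlapped for Umod, and its value was 0.82 with column totals (edgeR adjusted p = 0.029). Cldn16, a claudin of the magnesium and calcium pathway between cells, rose from 5.03 ± 1.35 to 9.58 ± 2.46 CPM (log2 0.93, edgeR adjusted p = 0.013).

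Of 18 genes of the distal convoluted and connecting tubule 13 fell and 2 rose, while with column totals 8 were lower and 4 higher. Calb1, the cytosolic calcium carrier calbindin-D28k, stood at 505, 444 and 791 CPM in sham and 37.3, 23.9 and 19.6 CPM in UUO (log2 change −4.43, SE 0.42, edgeR adjusted p = 1.4e-06). S100g, calbindin-D9k, stood at 1038, 1000 and 1062 CPM in sham and 40.2, 34.2 and 52.5 CPM in UUO (log2 −4.61). Slc8a1, the sodium-calcium exchanger of the basolateral side, fell from 206 ± 61.8 to 29.3 ± 3.64 CPM (log2 −2.82). Trpv5, the apical calcium entry channel, rose instead, at 18.9, 15.98 and 22.8 CPM in sham and 63.8, 59.8 and 35.7 CPM in UUO (log2 change 1.46, SE 0.25, edgeR adjusted p = 0.00026), and Atp2b1, a plasma membrane calcium pump, rose from 37.2 ± 3.62 to 62.9 ± 17.9 CPM. Slc12a3 (NCC), the thiazide-sensitive salt transporter, fell from 533 ± 46.1 to 221 ± 51.5 CPM (edgeR adjusted p = 6.6e-05, and 0.069 with column totals), and its regulators Wnk4 and Klhl3 from 353 to 98.4 CPM and from 63.7 to 14.2 CPM. Klk1, tissue kallikrein, fell from 2156 ± 158 to 148 ± 60.2 CPM.

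Genes of both collecting duct cell types fell. Of 15 principal cell genes 13 fell and none rose (median −2.27). Aqp2, the vasopressin-regulated water channel, stood at 2405, 788 and 1177 CPM in sham and 112, 42.3 and 56.5 CPM in UUO (log2 change −4.37, SE 0.77, edgeR adjusted p = 0.00033), where sham replicate 1 was over 2-fold above the other sham libraries. Aqp3 and Aqp4, through which the water leaves the cell, fell from 289 ± 162 to 24.4 ± 6.28 CPM and from 222 ± 56.3 to 9.95 ± 4.07 CPM, and Avpr2, the vasopressin receptor, from 108 ± 36.9 to 11.9 ± 1.79 CPM. The 3 subunits of the sodium channel ENaC fell by different amounts, Scnn1a by 2.27, Scnn1b by 1.54 and Scnn1g by 1.37 on the log2 scale. Of 19 intercalated cell genes 15 fell and none rose (median −1.89). Slc4a1, the anion exchanger of acid-secreting cells and of red cells, stood at 96.2, 104 and 106 CPM in sham and 3.05, 2.09 and 4.502 CPM in UUO (log2 −4.99), and its share from red cells was not tested. Rhcg, an ammonia channel, fell from 406 ± 44.1 to 46.9 ± 5.95 CPM, and Slc26a4 (pendrin), the exchanger of base-secreting cells, from 116 ± 10.96 to 18.3 ± 3.48 CPM. The renal forms of the proton pump Atp6v1b1 and Atp6v1g3 fell from 221 to 57.9 CPM and from 112 to 21.9 CPM, while the widely expressed Atp6v1b2 and Atp6v1c1 rose, at log2 0.49 and 0.53. Of 10 aquaporins tested 7 fell and Aqp9, known from liver and leukocytes, rose on 3 counts in sham and 78 in UUO (a ratio of 17.9 with a 95% counting interval of 5.92 to 88.9). In the medullary list Slc6a12, the betaine carrier that guards cells against high salt, fell from 8.91 ± 4.13 to 0.403 ± 0.0728 CPM, and Slc14a2, the urea transporter, from 205 ± 58.7 to 48.5 ± 20.7 CPM.

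**Figure D3:**
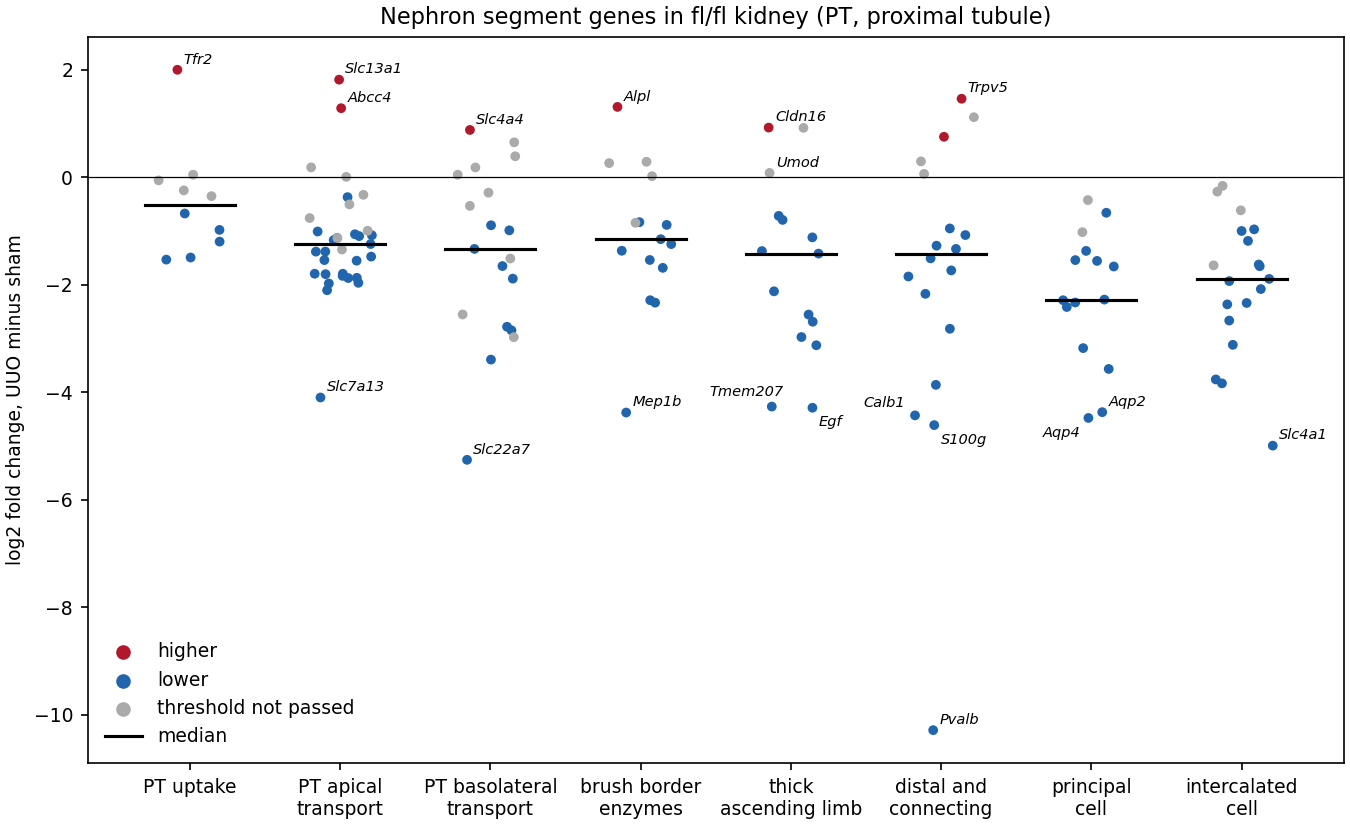
Log2 change, UUO minus sham, of each tested gene of 8 nephron lists (PT, proximal tubule; points coloured by whether a gene rose, fell or did not pass; black bars are list medians). All 8 medians lie below 0, from −0.51 in the proximal tubule uptake list to −2.27 in principal cells, and Slc13a1, Abcc4, Alpl, Cldn16 and Trpv5 are among the genes above 0.

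Of 38 nephron transcription factors 19 fell and 1 rose (median −0.83, −0.09 with column totals, where 2 fell and 5 rose). Irx1, a homeobox gene of the nephron, fell from 60.5 ± 20.7 to 12.2 ± 4.31 CPM (log2 −2.31), and Klf15, known as a regulator of metabolism, from 75.1 ± 14.7 to 22.1 ± 8.602 CPM. Nr3c2, the mineralocorticoid receptor, fell from 21.8 ± 9.96 to 7.41 ± 1.91 CPM, while Nr3c1, the glucocorticoid receptor, rose from 45.5 ± 2.97 to 65.5 ± 5.68 CPM (log2 0.53, edgeR adjusted p = 0.0065). Of 45 injury and repair factors 35 rose and 2 fell (median 1.91). Bcl3, a partner of NF-κB subunits, stood at 6.61, 5.84 and 7.33 CPM in sham and 105, 71.1 and 68.2 CPM in UUO (log2 change 3.62, SE 0.24, edgeR adjusted p = 6.5e-08), and Klf6 rose from 34.5 ± 4.699 to 255 ± 55.6 CPM. Runx1, a factor of blood and injured tubule, rose from 1.53 ± 0.587 to 36.4 ± 15.1 CPM (log2 4.56), Stat3 from 62.04 ± 3.99 to 195 ± 31.1 CPM and Relb from 7.37 ± 1.72 to 47.2 ± 5.201 CPM. The members that fell were Hif1a (log2 −0.74), the oxygen-sensing factor, and Mybl2 (log2 −0.80), a factor of proliferating cells, and they stood at −0.013 and −0.050 with column totals. Of 36 genes of tubular injury and failed repair, with Havcr1, Krt20 and Lif given above among them, 30 rose and none fell (median 2.52). In this list Vcam1, an adhesion molecule, stood at 12.01, 8.06 and 7.52 CPM in sham and 569, 533 and 512 CPM in UUO (log2 5.87), Anxa3 rose from 19.8 ± 2.04 to 175 ± 10 CPM, and Il34, a ligand of the macrophage receptor Csf1r, from 16.7 ± 2.27 to 111 ± 8.18 CPM.

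Of 46 growth factor ligands and receptors 14 rose and 9 fell. Within the EGF family, Egf and Btc (betacellulin, 25.5 to 3.15 CPM, log2 −3.01) fell, whereas Areg, Hbegf (log2 1.40) and Ereg (log2 3.41) rose. Pdgfb, the PDGF B chain, stood at 28.8, 22.9 and 28.2 CPM in sham and 294, 194 and 176 CPM in UUO (log2 3.05), and its receptor gene Pdgfrb, of pericytes and fibroblasts, rose from 36.02 ± 0.646 to 167 ± 9.97 CPM. Edn1, the vasoconstrictor endothelin 1, rose from 4.11 ± 0.142 to 46.1 ± 12.7 CPM (log2 3.49). Vegfa, which sustains the capillaries, fell from 301 ± 50.2 to 125 ± 8.78 CPM (log2 −1.27), Fgf1 from 322 ± 74.6 to 109 ± 28.2 CPM and Angpt2 from 37.5 ± 1.32 to 12.9 ± 1.89 CPM. With column totals neither Vegfa nor Angpt2 passed (edgeR adjusted p = 0.1 and 0.12). Of 22 endothelial genes 5 fell (22.7%) and 2 rose (9.1%), and the median changed sign with the scaling (−0.42, and 0.32 with column totals). In the vitamin D axis Cyp27b1, which makes the active hormone, stood at 1.28, 3.77 and 3.28 CPM in sham and 28.4, 35.9 and 29.8 CPM in UUO (log2 change 3.49, SE 0.43, edgeR adjusted p = 1.4e-05), while the receptor Vdr and the co-receptor of FGF23, Kl (klotho), fell from 242 ± 10.98 to 137 ± 8.21 CPM and from 448 ± 111 to 157 ± 24.2 CPM. Vdr stood at −0.081 with column totals and did not pass there.

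Collagen genes did not move as a block. Of 10 fibrillar collagens 5 rose (Col1a1, Col1a2, Col3a1, Col5a1 and Col5a2, by log2 0.87 to 3.67) and Col27a1, a fibrillar collagen best known from cartilage, fell, at 284, 324 and 219 CPM in sham and 57.8, 56.5 and 48.3 CPM in UUO (log2 change −2.35, SE 0.21, edgeR adjusted p = 6.8e-07). Type IV collagen, the sheet of basement membranes, split by chain. The widespread chains Col4a1 and Col4a2 rose from 241 ± 19.1 to 675 ± 218 CPM and from 182 ± 6.11 to 567 ± 4.08 CPM. The chains of the mature glomerular and distal tubular basement membrane fell, Col4a3 from 397 ± 27.6 to 94.7 ± 9.29 CPM, Col4a4 from 378 ± 12.1 to 128 ± 9.203 CPM and Col4a5 from 54.7 ± 4.07 to 28.1 ± 3.02 CPM. Col4a3 and Col4a4 lie head to head, and no strand setting of the counting is given, so reads of overlapping transcripts may not be told apart. Col8a1, of a short-chain network collagen, rose from 1.56 ± 0.751 to 44.1 ± 9.86 CPM (log2 4.80), Col15a1 from 15.7 ± 6.01 to 138 ± 18.9 CPM and Col12a1 from 9.84 ± 0.526 to 63 ± 9.52 CPM. Col17a1, known from the anchoring plaques of skin, rose from 0.129 to 9.14 CPM.

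Genes that process and crosslink the fibres rose in 13 of 24 cases and none fell. Lox and Loxl1, lysyl oxidases that crosslink collagen and elastin, rose from 4.52 ± 1.29 to 34.7 ± 3.48 CPM and from 8.57 ± 2.07 to 53.1 ± 6.46 CPM, and Sparc, a collagen-binding protein, from 119 ± 15.4 to 550.1 ± 13.9 CPM. Of 33 matrix glycoproteins 21 rose and 3 fell. Fbn2, a fibrillin, rose from 0.15 ± 0.2599 to 16.2 ± 7.58 CPM (log2 6.60), and Tgfbi from 8.14 ± 0.472 to 95.3 ± 22.2 CPM. The 3 of this list that fell were Comp (2.09 to 0.552 CPM), Tnxb (19.4 to 9.004 CPM) and Eln, elastin (32.1 to 19.9 CPM), of which Tnxb and Eln did not pass with column totals, at log2 −0.35 and 0.052. Tnn, tenascin N, is outside the list and fell more steeply, by 4.60 on the log2 scale. Of 28 proteoglycan and hyaluronan genes 12 rose and 2 fell, with Cd44, the hyaluronan receptor, at 2.202, 1.92 and 3.02 CPM in sham and 138, 108 and 70.6 CPM in UUO (log2 5.46) and Fmod, fibromodulin, at 25.7, 14.5 and 13.6 CPM in sham and 2.71, 2.62 and 3.001 CPM in UUO (log2 −2.69). Of 13 laminins and nidogens 3 rose and 1 fell. Among fibroblast markers Pdgfra stood at log2 1.003 and Dcn at 0.57, neither past the threshold, Thy1 rose from 2.34 ± 0.795 to 39.8 ± 1.39 CPM, and Pi16, a marker of adventitial fibroblasts, fell from 12.9 ± 0.843 to 4.95 ± 0.715 CPM. Acta2, smooth muscle actin, was at 92.3, 39.4 and 62.6 CPM in sham and 160.5, 134 and 76.8 CPM in UUO and did not pass, Tagln rose from 55.6 ± 20.1 to 227 ± 50.9 CPM, and Myh11, the smooth muscle myosin, fell from 48.2 ± 20.7 to 12.8 ± 2.51 CPM. With column totals Pdgfra, Dcn and Acta2 were past the threshold, at log2 1.73, 1.31 and 1.67 (edgeR adjusted p = 0.003, 0.001 and 0.006), and Pi16 was not (0.13).

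Of 23 metalloproteinase (MMP) genes 18 passed the count filter. Of these 15 rose and none fell (median 3.09, or 2.90 with 2 genes absent in sham set to their lower bounds). Mmp7, matrilysin, a protease of injured epithelium, stood at 0, 0.148 and 0 CPM in sham and 27.1, 27.4 and 26.8 CPM in UUO, with 2 counts in all sham libraries together and 1694 in UUO (a ratio of 584 with a 95% counting interval of 162 to 4830). Mmp14, the membrane-bound activator of Mmp2, rose from 8.78 ± 1.57 to 129 ± 29.8 CPM (log2 change 3.88, SE 0.24, edgeR adjusted p = 4.1e-08), and Mmp2 from 3.14 ± 0.676 to 17.7 ± 5.14 CPM. Inhibitors split: Timp1 (log2 7.09) and Timp2 (0.60) rose, while Timp3, the most abundant inhibitor in sham, fell from 956 ± 213 to 678 ± 111 CPM, and Timp4 fell from 32 counts in sham to 2 in UUO. Timp3 overlapped between groups and stood at 0.23 with column totals. In the plasminogen and serpin list 19 of 20 genes rose and 1 fell. The list does not hold every serpin, and Serpina1d, outside it, fell by 4.33 on the log2 scale. Plat, tissue plasminogen activator, rose from 45.7 ± 13.3 to 148 ± 5.21 CPM (log2 change 1.69, SE 0.19, edgeR adjusted p = 5e-06), and Serpinf2, α2-antiplasmin, fell from 238 ± 54.6 to 118 ± 17.6 CPM.

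The AP-1 letters TGANTCA were searched in the same promoter windows. Among AP-1 subunit genes Junb rose from 21.8 ± 5.22 to 179 ± 37.8 CPM and Fosl1 on 2 counts in sham and 449 in UUO, while Fosb did not pass. A match stood in 7.8% of all genes in the table, in 6.2% of the genes tested that had a promoter there, in 8.2% of the genes that rose and in 5 of the 14 MMP genes (Mmp3, Mmp7, Mmp12, Mmp13 and Mmp20). Of these Mmp13 did not pass the test (log2 0.47), and Mmp20 had 0 counts in sham. All 5 lie on chromosome 9, with starts between 7272514 and 7692090. The promoters of Mmp7 (chr9:7691840-7692061) and Mmp3 (chr9:7445572-7445793) are shown because the match has the same letters and lies close to the start in both, 63 and 46 bases before it. Mmp12 held the same letters 44 bases before a start and is not shown. The windows are from RefSeq GRCm38.p6, + strand, 250 to 29 bases before the start, with the match in capitals.
Mmp7 promoter: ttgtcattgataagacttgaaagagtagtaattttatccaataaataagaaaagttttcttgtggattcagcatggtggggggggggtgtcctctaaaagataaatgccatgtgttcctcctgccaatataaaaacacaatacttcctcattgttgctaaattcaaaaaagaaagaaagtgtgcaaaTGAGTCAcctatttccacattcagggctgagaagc
Mmp3 promoter: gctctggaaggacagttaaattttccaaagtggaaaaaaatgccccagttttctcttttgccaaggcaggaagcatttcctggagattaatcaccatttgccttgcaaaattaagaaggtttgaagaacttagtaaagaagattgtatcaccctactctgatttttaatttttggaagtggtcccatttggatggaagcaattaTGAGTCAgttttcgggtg
Mmp3, stromelysin 1, rose from 0.486 ± 0.2401 to 4.93 ± 1.73 CPM (log2 3.33). Mmp14 rose without these letters in its window. A match in a window shows no binding.

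Of 53 keratin genes 17 passed the count filter, and of these 12 rose and 3 fell. Krt8 and Krt18, the pair of simple epithelia, rose by 1.37 and 1.26 on the log2 scale, and Krt5 and Krt14, the pair of basal stratified epithelia, rose from 3.78 ± 1.08 to 36.1 ± 20.6 CPM and from 0.844 ± 0.288 to 18.2 ± 9.07 CPM. Krt80, Krt10 and Krt23 fell (log2 −1.61, −1.13 and −1.42). With column totals none of these 3 passed (edgeR adjusted p = 0.081, 0.39 and 0.34), and Krt23 lost its call in 5 of the 6 fits that left out 1 fl/fl library. Of the 5 uroplakin genes, which mark the lining of the renal pelvis, none passed, with Upk1b at 7.17, 4.29 and 8.55 CPM in sham and 12.7, 27.7 and 8.84 CPM in UUO and Upk3a at 10.9, 6.14 and 14.9 CPM in sham and 3.31, 8.63 and 3.43 CPM in UUO. Cldn1, a claudin of parietal and injured epithelium, rose from 16.8 ± 5.42 to 134 ± 15.8 CPM (log2 2.996), Cldn4 from 47.7 ± 14.4 to 173 ± 56.2 CPM, and Cldn10 fell from 136 ± 22.5 to 62.7 ± 27.4 CPM. Cdh16, the kidney-specific cadherin, fell from 730.4 ± 55.3 to 373 ± 1.03 CPM, and Cdh11, a cadherin of mesenchyme, rose from 5.397 ± 1.14 to 47.02 ± 6.02 CPM (log2 3.12).

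Of 34 chemokine ligand genes tested 22 rose and 2 fell (median 2.82). Ccl2, which recruits monocytes, stood at 0.7104, 0.3698 and 0.514 CPM in sham and 36.97, 29.8 and 27.4 CPM in UUO (log2 change 5.86, SE 0.41, edgeR adjusted p = 8.9e-08), and Ccl7, its neighbour in the genome, had 2 counts in sham and 724 in UUO. Cxcl1, which draws neutrophils, stood at 1.14, 0.962 and 0.772 CPM in sham and 102, 81.8 and 57.9 CPM in UUO (log2 6.39, SE 1.05), and Cxcl2 had 1 count in all sham libraries and 771 in UUO (a ratio of 532 with a 95% counting interval of 95.2 to 21000). Cxcl16, a membrane-bound ligand, rose from 42.7 ± 6.42 to 238 ± 16.1 CPM. The 2 that fell were Cxcl12, a homeostatic ligand of stroma, from 75.8 ± 8.02 to 20.9 ± 9.34 CPM, and Ccl21a, of lymphatic vessels, from 17.7 ± 3.895 to 4.18 ± 0.851 CPM. Of 23 chemokine receptor genes 14 were tested. Of these 10 rose and none fell, and Ccr1 (log2 4.57), Ccr2 (log2 2.93) and Cx3cr1 (log2 2.20) were among those that rose.

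The letters GGANTTTCC, a form of the NF-κB motif, stood in the windows of Cxcl1, Cxcl2, Cxcl3 and Cxcl10, 4 of the 24 chemokine ligand genes with a promoter in the table, against 1.2% of all genes in the table and 1.4% of the genes tested. Cxcl3 had 1 count in sham and 34 in UUO, and Cxcl10 rose from 3.21 ± 0.485 to 55.2 ± 10.1 CPM. Cxcl1 and Cxcl2 are shown because these neighbouring genes of chromosome 5 carry the same 9 letters, 70 and 96 bases before the start. Cxcl3, also on chromosome 5, held the same letters 72 bases before its start and is not shown. Windows are chr5:90890995-90891216 and chr5:90903649-90903870, + strand, RefSeq GRCm38.p6, from 250 to 29 bases before the start, with the match in capitals.
Cxcl1 promoter: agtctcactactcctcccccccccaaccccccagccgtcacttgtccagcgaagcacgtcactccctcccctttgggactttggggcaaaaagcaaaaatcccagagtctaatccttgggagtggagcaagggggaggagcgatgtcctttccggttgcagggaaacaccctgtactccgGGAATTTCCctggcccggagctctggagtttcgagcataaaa
Cxcl2 promoter: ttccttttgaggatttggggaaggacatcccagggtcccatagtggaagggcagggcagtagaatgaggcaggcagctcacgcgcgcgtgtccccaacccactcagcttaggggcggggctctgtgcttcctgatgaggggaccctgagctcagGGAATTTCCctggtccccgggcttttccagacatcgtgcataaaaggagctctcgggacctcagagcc
The genes of the NF-κB subunits rose too, Nfkb2 from 20.5 ± 3.76 to 108 ± 4.48 CPM and Relb as given above. Ccl9 (log2 4.98) rose without these letters in its window. Here too a match shows no binding.

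Of 28 complement genes listed 18 rose and 5 fell. C8a, which fell by 4.62 on the log2 scale as given above, is outside this list. C3, the hub protein that all pathways cleave, stood at 41.6, 12.3 and 11.6 CPM in sham and 2246, 1775 and 1560 CPM in UUO (log2 change 6.41, SE 0.48, edgeR adjusted p = 1.8e-07). C1qa, C1qb and C1qc, the chains that start the classical pathway and are made by macrophages, rose by log2 3.50, 3.66 and 3.80. Cfi, which inactivates C3b, rose from 2.85 ± 0.0961 to 50.6 ± 10.6 CPM, and Clu, clusterin, from 266 ± 53.9 to 1644 ± 108 CPM. Cfd, factor D of the alternative pathway and also an adipocyte gene, stood at 97.4, 1.18 and 2.06 CPM in sham and 1.89, 0.873 and 0.5895 CPM in UUO. That difference passed, but it rests on sham replicate 1, without which it was −0.52 (edgeR adjusted p = 0.74). The others of this list that fell were C8g, Cr2, Cd55 and Cd46, with log2 changes from −1.91 to −0.71 (Cd46 at 0.036 with column totals), of which Cd55 and Cd46 shield cells against complement. Of 8 adipose genes 5 passed, all lower, with Adipoq at 10.02, 0.3698 and 0.4501 CPM in sham and 0.387, 0.291 and 0.375 CPM in UUO and Plin1 (log2 −3.77) beside it. Cfd and Adipoq were high in the same sham library, and without it Adipoq (edgeR adjusted p = 0.91) and Plin1 (edgeR adjusted p = 0.53) did not pass. The part of adipose tissue in the value of Cfd was not tested.

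Of 17 macrophage genes 12 rose and 1 fell (summed 248 to 274 CPM in sham and 1127 to 1359 CPM in UUO). Fcgr1, an Fc receptor, stood at 0.781, 1.11 and 1.29 CPM in sham and 22.9, 20.1 and 17.3 CPM in UUO (log2 4.23), Mrc1, the mannose receptor, rose from 4.05 ± 0.994 to 54.8 ± 12.2 CPM, and Cd68 from 3.03 ± 0.471 to 26.01 ± 3.64 CPM. Csf1r, the receptor that defines the lineage, did not pass, at 132, 122 and 98 CPM in sham and 101, 108 and 111 CPM in UUO (log2 −0.14, edgeR adjusted p = 0.48), but passed as higher with column totals (log2 0.61, edgeR adjusted p = 0.035). Mertk, which clears dying cells, fell from 50.3 ± 7.91 to 31.6 ± 4.21 CPM, although it stood at 0.075 with column totals. Of 16 T cell genes 15 rose and none fell, with Cd4 at 0.284, 0.148 and 0.514 CPM in sham and 3.14, 5.19 and 3.91 CPM in UUO and Cd3g at 1.07, 0.3698 and 1.09 CPM in sham and 4.99, 3.59 and 5.41 CPM in UUO. Cd8a, the exception, was at −0.30, while Cd8b1 rose by 3.09 on the log2 scale. Of 13 neutrophil genes 8 were tested, of which 7 rose, with S100a8 at 0.284, 0.592 and 0 CPM in sham and 3.095, 3.98 and 2.63 CPM in UUO. Ly6g, Elane, Mpo, Camp and Ngp were below the count filter. Of 28 antigen presentation genes 26 rose and none fell. H2-Aa, of MHC class II, stood at 49.6, 65.2 and 63.5 CPM in sham and 490, 734 and 517 CPM in UUO (log2 change 3.29, SE 0.21, edgeR adjusted p = 4.4e-08), and H2-K1, of class I, rose from 128 ± 7.04 to 604 ± 33.7 CPM. All 6 erythroid genes tested fell (summed 678 to 1496 CPM in sham and 54.5 to 232 CPM in UUO), with Hbb-bs, a beta globin, at 209, 130.1 and 276 CPM in sham and 12.5, 15.6 and 50.8 CPM in UUO. Red cell transcripts were therefore lower while leukocyte transcripts were higher, and the globin genes have near-identical copies.

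Interferon-stimulated genes rose in part. Of 16 IFIT, OAS and MX family genes 11 rose, among them Oasl1 (1.798 to 15.8 CPM), Oasl2 (13.99 to 50.8 CPM) and Mx1 (1.48 to 6.91 CPM), which act against RNA viruses. Of 10 guanylate-binding proteins 7 rose, with Gbp2 at 6.89, 8.88 and 12.4 CPM in sham and 69.3, 61.3 and 60.99 CPM in UUO (log2 2.76). Neither family had a member that fell. The interferon response element was searched as GAAANNGAA. It stood in 8.2% of all genes in the table, in all 5 guanylate-binding protein genes with a promoter there and in 9 of 12 IFIT, OAS and MX genes. Gbp3 is shown as a member that rose, from 13.1 ± 2.35 to 51.6 ± 2.83 CPM, and Ifit3 as one that held 3 matches and did not pass, at 52.9, 41.4 and 59.8 CPM in sham and 59.8, 52.3 and 66.3 CPM in UUO (log2 0.21, edgeR adjusted p = 0.37), although it passed with column totals (log2 0.94, edgeR adjusted p = 0.029). Windows are chr3:142559794-142560015 and chr19:34583279-34583500, + strand, RefSeq GRCm38.p6, from 250 to 29 bases before the start, with matches in capitals, all of them on the opposite strand.
Gbp3 promoter: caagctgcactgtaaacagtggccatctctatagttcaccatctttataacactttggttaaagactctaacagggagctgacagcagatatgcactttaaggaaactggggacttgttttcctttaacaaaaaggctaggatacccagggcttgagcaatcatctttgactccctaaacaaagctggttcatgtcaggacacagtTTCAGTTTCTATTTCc
Ifit3 promoter: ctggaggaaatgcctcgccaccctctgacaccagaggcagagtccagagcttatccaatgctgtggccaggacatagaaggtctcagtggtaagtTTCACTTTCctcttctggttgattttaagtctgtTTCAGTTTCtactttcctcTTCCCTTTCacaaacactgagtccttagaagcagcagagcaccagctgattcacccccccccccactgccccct
The 2 matches in Gbp3 overlap, beginning 44 and 38 bases before the start, and those in Ifit3 begin 155, 121 and 102 bases before it. Irf1, a factor that binds such elements, rose from 9.26 ± 1.51 to 28.5 ± 2.63 CPM. Genes with the letters in the window included both some that rose and some that did not pass.

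Genes that sense microbes and damage rose in 22 of 30 cases, with none lower. Tlr2, a receptor for bacterial lipoproteins, stood at 3.48, 2.07 and 2.51 CPM in sham and 39.3, 33.4 and 38.8 CPM in UUO (log2 change 3.79, SE 0.27, edgeR adjusted p = 1.2e-07), Sting1, the adaptor of cytosolic DNA sensing, rose from 4.12 ± 0.869 to 27.4 ± 4.83 CPM, and Nlrp3, the inflammasome receptor, from 0.348 ± 0.0691 to 4.48 ± 0.922 CPM. Of 39 cell death genes 21 rose and 3 fell. Casp4, the caspase that senses endotoxin (caspase-11 in mice), rose from 2.69 ± 0.623 to 18.6 ± 3.095 CPM, and Gsdmd, the pore protein of pyroptosis, from 8.49 ± 0.782 to 30.3 ± 6.46 CPM. Gpx4 fell from 309.5 ± 16.4 to 147 ± 26.8 CPM, Fth1 from 2394 ± 114 to 1199 ± 161 CPM and Tfrc from 76.8 ± 21.3 to 32.1 ± 5.82 CPM. With column totals 29 of the 39 were higher and 0 lower, and Gpx4, Fth1 and Tfrc did not pass (edgeR adjusted p = 0.54, 0.61 and 0.092). Gpx3, the secreted glutathione peroxidase of proximal tubule, overlapped between the groups, at 18530, 20070 and 2930 CPM in sham and 14420, 2431 and 2377 CPM in UUO, and did not pass.

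Cell cycle genes rose from low levels. Of 30 mitosis genes 27 rose and none fell (median 2.11). Ndc80, a kinetochore protein, stood at 0.142, 0.296 and 0.386 CPM in sham and 2.97, 5.04 and 3.16 CPM in UUO (log2 change 3.71, SE 0.42, edgeR adjusted p = 6.1e-06), Cdk1, the mitotic kinase, rose from 1.27 ± 0.207 to 7.998 ± 0.971 CPM, and Ccnb2, its cyclin partner, from 1.89 ± 0.313 to 7.02 ± 0.902 CPM. Of 28 DNA replication genes 19 rose (median 0.99). Mcm3 and Mcm5, subunits of the replicative helicase, rose from 3.63 ± 1.12 to 20.04 ± 2.17 CPM and from 4.602 ± 2.15 to 17.02 ± 4.02 CPM. Among G1 regulators Trp53 rose from 40.03 ± 4.17 to 79.9 ± 3.83 CPM, while Ccnd1, cyclin D1, fell from 188 ± 25.4 to 143 ± 23.1 CPM, although its groups overlapped and it stood at 0.33 with column totals.

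**Figure D4:**
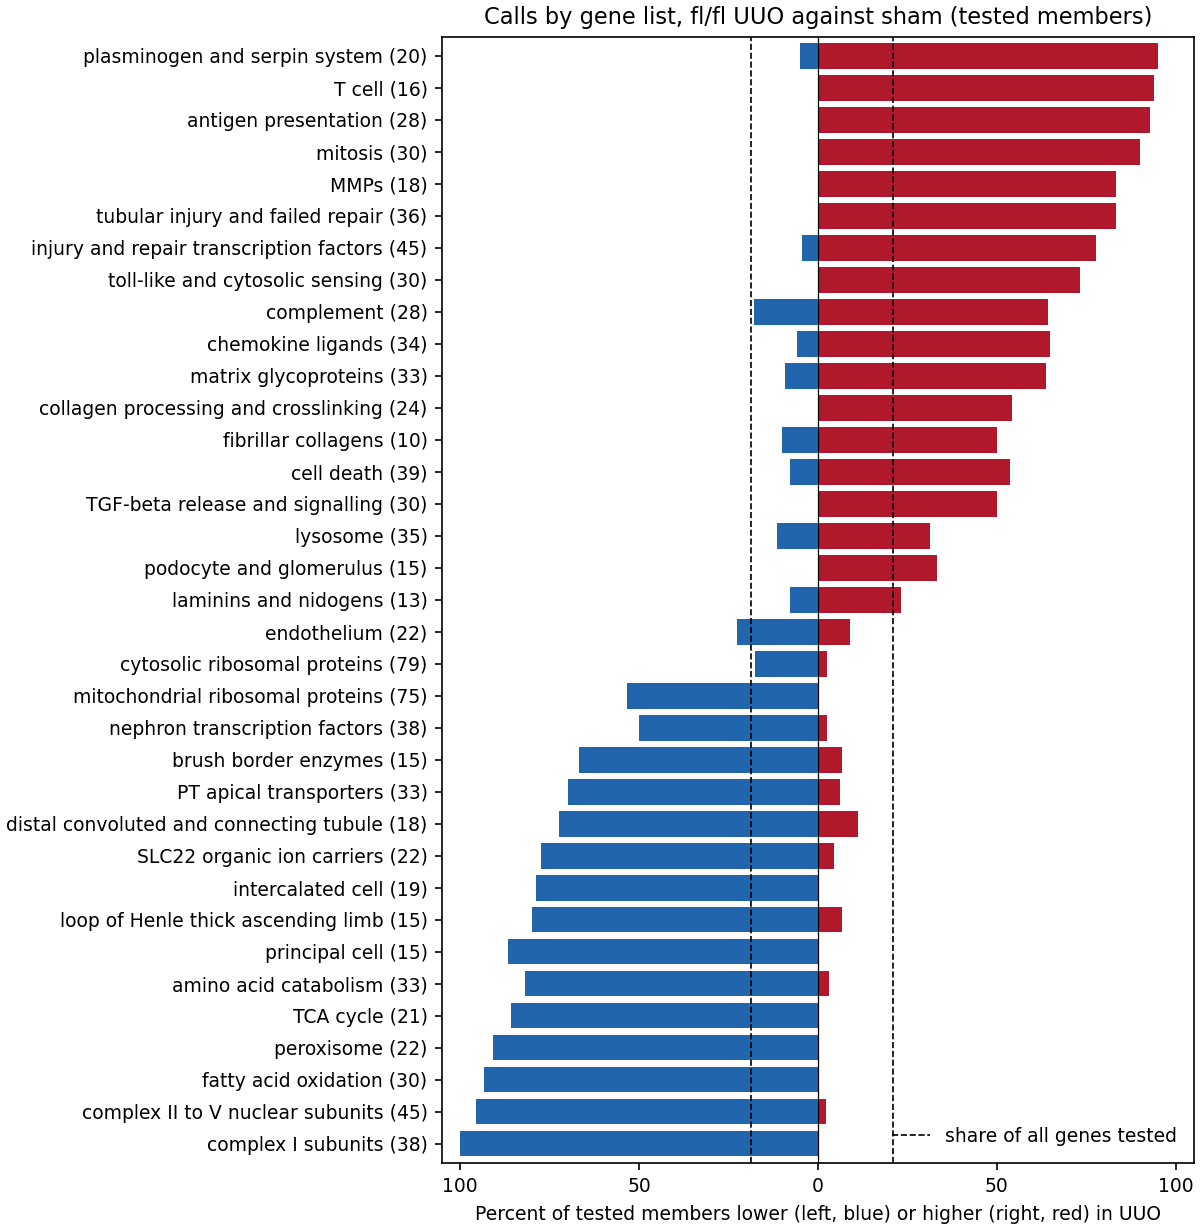
Percent of the tested members of 35 lists that rose (red, right) or fell (blue, left) in fl/fl UUO, with the number tested in parentheses and dashed lines at the shares of all genes tested (20.9% and 18.7%). Lists of energy metabolism and of nephron segments reach furthest left, and the plasminogen, T cell, antigen presentation and mitosis lists furthest right.

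The response of fl/fl kidneys was set beside that of tKO kidneys, which shared no library with it. In tKO 4168 of the 19256 genes tested were called higher and 3729 lower. Of the genes called in fl/fl, 5548 were also called in tKO in the same direction and 27 in the opposite one, while 2050 were not called in tKO, 1709 of these with the same sign. The difference of the responses was tested directly as an interaction, and 8 of 19256 genes passed (0.0415%), 6 of them with a lower and 2 with a higher response in tKO. Havcr1 rose in both, by 9.28 in fl/fl and 6.99 in tKO (difference −2.29, edgeR adjusted p = 0.045), with tKO levels of 4.02 ± 1.26 CPM in sham and 503 ± 104 CPM in UUO. That difference passed in 5 of the 12 fits that left out 1 of the libraries compared. Irf1 rose in fl/fl, at 10.7, 9.47 and 7.65 CPM in sham and 28.3, 25.9 and 31.2 CPM in UUO, and stood at −0.32 in tKO (difference −1.94, edgeR adjusted p = 0.008). In tKO its sham libraries were already at 24.8 ± 4.81 CPM. Gys1, muscle glycogen synthase, stood at 40.9, 41.6 and 35.2 CPM in sham and 37.4, 31.4 and 33.5 CPM in UUO in fl/fl and did not pass there, but fell by 2.46 on the log2 scale in tKO (difference −2.26, edgeR adjusted p = 0.00039). Slc30a7, a zinc transporter of the Golgi, rose in both, by 0.86 and 3.01 (edgeR adjusted p of the difference 0.00055). Rarres2, the chemoattractant chemerin, was at −0.30 in fl/fl and 1.60 in tKO (edgeR adjusted p of the difference 0.0037). The interaction calls of Irf1, Gys1, Slc30a7 and Rarres2 held in all 12 such fits. Pcmt1 was at 49.3 CPM in the library labelled tKO sham replicate 1, above all fl/fl sham libraries, and without it 293 genes passed the interaction test. Mitochondrially encoded genes took 69.5% of the counts in replicate 3 of tKO sham, with a TMM factor of 0.352, against 33.7% and 0.833 in replicate 1 and 49.7% and 0.654 in replicate 2, and without replicate 3 the number was 5. Without fl/fl UUO replicate 3 the number was 171, and with column totals it was 0, where the 8 genes above had edgeR adjusted p of 0.053 to 0.41.

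**Figure D5:**
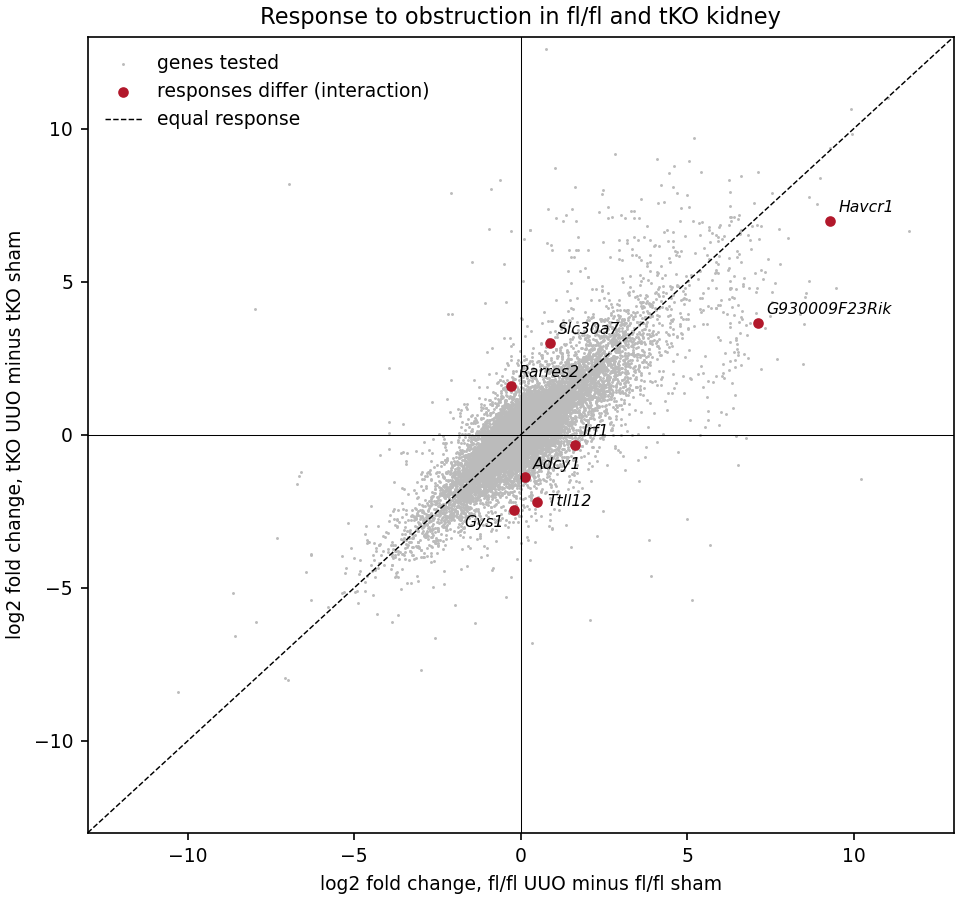
Log2 change with obstruction in fl/fl (x axis) against that in tKO (y axis) for every gene tested (grey points), with the 8 genes past the interaction threshold in red and the dashed line where both responses are equal. Havcr1 and G930009F23Rik lie far right and below the line, and Irf1, Ttll12, Gys1 and Adcy1 lie below 0 in tKO.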

How the data were processed

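The authors deposited gene-level read counts and FPKM for 18 kidney libraries, made from total RNA extracted with TRNzol and an ABclonal mRNA-seq kit, per the labels' protocols. The submitters' processing notes name fastp, HISAT2, StringTie and GRCm38, without versions or a strand setting. The deposited gene positions matched GRCm38 annotation for few genes, so positions are those of GENCODE by Ensembl ID. The 525 entries without symbol and type were counted in the table of 57180. The deposited counts were fitted with edgeR 4.0.16 (R 4.3.3) over all 18 libraries in 6 groups: filterByExpr, TMM, the quasi-likelihood test and Benjamini-Hochberg adjustment over 19256 genes. FPKM, deposited by the authors, was used only to rank genes by level. The method was tested on simulated data in which few genes changed, as many up as down, from sham levels. That setting cannot show how the scaling behaves under a shift as wide as the one seen here. Alternatives were other scalings, no filter, only the 6 libraries, DESeq2 1.42.0, a replicate block, and leaving out 1 library: each fl/fl sham and UUO library or tKO sham replicate 1, and for the genotype comparison each of the 12 sham and UUO libraries with DMSO alone.

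The groups, gene lists and motifs were chosen with earlier results of these data known. Genes named are the 15 largest increases and decreases with a mean of at least 5 CPM and groups apart, the most abundant by FPKM, genes at 0 in a group, and in each list the 6 with the smallest p, members against the majority and any member of a list of 20 or fewer. Hnf4a, Slc5a2, Col4a1, Col4a2, Hbegf, Ereg, Junb, Fosl1, Krt18 and Mmp2 were chosen after their values were seen, the 8 genes of the genotype comparison by their test, and the other genes outside that rule by a motif match.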

Additional observations from a re-analysis of the deposited data

Results flagged for a closer look

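In 8 genes the responses of fl/fl and tKO kidneys differed by the interaction test (edgeR adjusted p under 0.05 over 19256 genes). The difference, tKO minus fl/fl on the log2 scale, was −2.26 for Gys1, 2.14 for Slc30a7, 1.90 for Rarres2, −1.94 for Irf1, −1.50 for Adcy1, −3.46 for G930009F23Rik, −2.29 for Havcr1 and −2.68 for Ttll12. Adcy1, an adenylyl cyclase, stood at 10.9, 9.39 and 11.96 CPM in sham and 11.7, 11.9 and 11.5 CPM in UUO in fl/fl and fell by 1.38 in tKO. Ttll12, of the tubulin tyrosine ligase-like family, stood at 22.4, 22.6 and 23.7 CPM in sham and 34.6, 33.2 and 27.98 CPM in UUO in fl/fl and fell by 2.20 in tKO. G930009F23Rik, a long non-coding RNA, rose in both, by 7.12 and 3.66. Leaving out each of the 12 libraries of the comparison in turn, the calls of Gys1, Slc30a7, Rarres2 and Irf1 held in 12 of 12 fits, that of Havcr1 in 5, those of Adcy1 and G930009F23Rik in 4 each and that of Ttll12 in 2. With column totals none of the 8 passed.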

How the results depend on the processing

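Scaling by column totals put 8547 genes above and 906 below sham, 6361 and 723 of them at least 2-fold, and 0 genes passed the interaction test. Log2 values that changed sign there were Aldoa 0.11, Ccnd1 0.33, Cd46 0.036, Cd8a 0.43, Csf1r 0.61, Eln 0.052, Gapdh 0.11, Gys1 0.54, Hnf4a 0.045, Mertk 0.075, Pcmt1 0.54, Pgk1 0.024, Rarres2 0.44 and Timp3 0.23. Leaving out 1 library, Kcnj16 ran from −3.505 to 0.259 (without sham replicate 2), Ren1 from −0.279 (without UUO replicate 3) to 1.032 and Umod from −0.010 (without UUO replicate 1) to 0.245. The cause was not tested. Leaving out 1 library gave 3352 to 4237 genes higher, 2889 to 3764 lower, 2428 to 2750 at least 2-fold higher and 1734 to 2197 at least 2-fold lower. The interaction count ran from 4 to 293 across these, with 293 without tKO sham replicate 1 and 171 without fl/fl UUO replicate 3. With the replicate number as a block, in the 6 libraries alone, 3512 genes were higher and 3294 lower. Same-numbered libraries had deviations correlated at 0.019, −0.001 and −0.033, and differently numbered ones from −0.032 to 0.027. With 3 libraries a group, such values cannot show whether same-numbered libraries share more than a number. DESeq2 called 4317 higher and 3824 lower. Of 264 genes named, 9 to 18 lost their call when 1 fl/fl library was left out, and none changed call with RLE scaling. Of the 6 such cases, Pgk1 lost it in 6, Atp2b1, Krt23, Timp2 and Tpi1 in 5, Adipoq, Atp6v1b2, Ccnd1, Gapdh, Hif1a, Krt18, Plin1 and Slc4a4 in 4, Col5a2, Eln, Hnf4a and Timp3 in 3, Cfd, Cldn16 and Mybl2 in 2, and Arg2, Fth1 and Mertk in 1. Slc4a4 lost it without sham replicate 1 or 2 or UUO replicate 1 or 3, and Cldn16 without sham replicate 1 or UUO replicate 3. With column totals 32 of the 264 lost their call with the same sign, Adipoq, Angpt2, Cd55, Cdh16, Cldn10, Col4a5, Cox5b, Cubn, Fth1, Gpx4, Hif1a, Krt10, Krt23, Krt80, Mdh2, Mybl2, Nr3c2, Pfkm, Pgam1, Pi16, Scnn1g, Serpinf2, Slc12a3, Slc22a4, Slc34a1, Slc3a1, Tfrc, Tnxb, Tpi1, Treh, Vdr and Vegfa, while 9 gained one, Acta2, Adcy1, Dcn, Ifit3, Pdgfra, Ren1, Ttll12, Umod and Upk1b. Of the 8 interaction calls, Gys1, Slc30a7, Rarres2 and Irf1 held in all 12 cases of 1 library left out, Havcr1 in 5, Adcy1 and G930009F23Rik in 4 and Ttll12 in 2.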
